A study of Mus musculus with 6 samples.

Results

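Expression of 38 genes of DNA replication and S phase was compared between dermal fibroblasts of TSP2KO mice and of WT mice. TSP2KO denotes mice that lack thrombospondin-2, a secreted matricellular protein encoded by Thbs2, and WT denotes wild type. The members were chosen by gene symbol, as genes that license replication origins, copy DNA, supply its building blocks or act in S phase. All 38 symbols were among the 23407 genes listed, and 37 of them had a mean of at least 10 normalised reads over the libraries and entered the test. The member left out, Ung, was listed at 6.89, 6.15 and 6.23 normalised reads in TSP2KO and at 3.61, 2.35 and 9.62 in WT, which is an estimated 6 to 15 reads per library. The data are bulk poly(A) RNA sequencing of 3 TSP2KO and 3 WT libraries. Cells of both genotypes were primary cultures grown from dorsal dermis of mice aged 12 weeks, enriched for fibroblasts over 3 to 5 days of culture with serum, and RNA was taken at passage 1. The sources used here give neither the strain background nor the sex of the mice, nor whether the deletion is in every cell. Nothing in the labels ties the libraries of a genotype to different mice, and a p-value here speaks only to the spread among these 6 libraries, part of which may be technical.

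The libraries held an estimated 14776147 to 34598785 reads. One library went against its label in Thbs2. Thbs2 had 5177, 6635 and 4891 normalised reads in TSP2KO 1, 2 and 3, against 122061, 116720 and 8841 in WT 1, 2 and 3. The library labelled WT 3 thus lay close to the TSP2KO libraries in the gene that separates the genotypes. With all libraries the log2 fold change of Thbs2 was -3.18 (limma adjusted p = 0.318), and without WT 3 it was -4.43 (limma adjusted p = 0.00257). Comparisons are therefore given with all 6 libraries in their labelled groups and again without WT 3, where 3 TSP2KO libraries are set against 2 WT libraries. The cultures expressed the fibroblast genes Col1a1, Col1a2 and Col3a1 in every library. Other fibroblast markers were not level between the groups. The mean log2 level of the 11 markers, relative to the mean of the WT libraries, was -0.77, -0.76 and -1.05 in TSP2KO 1, 2 and 3, against 0.24, 0.15 and -0.39 in WT 1, 2 and 3. Dcn, named after its values were seen as were Lum and Pdgfra, had 12199.7, 11095 and 2368 normalised reads in TSP2KO, against 50984, 55417 and 38395 in WT. Dcn, Lum and Pdgfra were lower in every TSP2KO library than in any WT library, as were 8.27% of all genes tested. None of the 3 passed with all libraries (limma adjusted p = 0.182, 0.341 and 0.162), while Pdgfra passed without WT 3 (limma adjusted p = 0.0401). S100a4, also named after its values were seen, went the other way, with 9897, 7484 and 13164 in TSP2KO, against 2607, 3008 and 8241 in WT. It passed as higher without WT 3 (limma adjusted p = 0.0192) but not with all libraries (limma adjusted p = 0.400). Of the 11 markers, 3 had a log2 fold change above 0 with all libraries and 8 below, where 48.5% of all genes were above 0.

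DNA replication begins when the origin recognition complex, with Cdc6 and Cdt1, loads rings of Mcm2 to Mcm7 onto origins during G1. In S phase these rings are activated as helicases by Cdc45 and the GINS complex, and polymerases then copy each strand with the sliding clamp Pcna and its loader. Many of these genes are transcribed in a wave at the G1 to S transition under the E2F factors, which are released when cyclin-dependent kinases phosphorylate the retinoblastoma protein. In dermal fibroblasts the pathway is active in cycling cells and quiet in cells that rest, so the amount of this RNA in a culture follows the share of cycling cells as well as the RNA per cell.

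Because the members are known for E2F control, the promoter sequences of several are shown first. RefSeq promoter windows (GRCm38.p6, 250 bases before to 50 bases after a start site) were found for 32 members. The E2F site was searched in 4 spellings, TTTGGCGC, TTTCCCGC, TTTCGCGC and TTTGCCGC, on both strands. A window with such a site was found for 12 members, namely Orc1, Cdc6, Cdt1, Mcm3, Mcm5, Mcm6, Mcm7, Pola1, Rfc3, Lig1, Uhrf1 and Clspn. Printed here are 4 short stretches with their sites in capitals, chosen because they lie outside the annotated exons of their gene. Mcm5 (chr8:75109336-75109387, + strand) and Pola1 (chrX:93632266-93632313, - strand) lie upstream of the gene in GENCODE M21. Cdc6 (chr11:98907993-98908040, + strand) and Uhrf1 (chr17:56304108-56304155, + strand) lie in an intron of it, since M21 also holds transcripts that start further upstream. The Mcm5 stretch holds 2 sites that overlap on opposite strands.
Mcm5: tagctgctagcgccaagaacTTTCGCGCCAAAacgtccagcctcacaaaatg
Pola1: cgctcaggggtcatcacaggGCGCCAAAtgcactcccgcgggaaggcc
Cdc6: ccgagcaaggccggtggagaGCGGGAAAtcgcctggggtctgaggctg
Uhrf1: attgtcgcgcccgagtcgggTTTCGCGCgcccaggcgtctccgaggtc
The 250 bases before the start site are shown whole for 2 members, one with E2F sites and one without. Mcm6 (chr1:128359706-128359955, - strand) has 3 E2F sites, in capitals, and also 2 CCAAT boxes on the opposite strand, left in lower case. Rrm2 (chr12:24708004-24708253, + strand) has no E2F site in these spellings and a single CCAAT box, in capitals; its last 13 bases are exonic in M21.
Mcm6: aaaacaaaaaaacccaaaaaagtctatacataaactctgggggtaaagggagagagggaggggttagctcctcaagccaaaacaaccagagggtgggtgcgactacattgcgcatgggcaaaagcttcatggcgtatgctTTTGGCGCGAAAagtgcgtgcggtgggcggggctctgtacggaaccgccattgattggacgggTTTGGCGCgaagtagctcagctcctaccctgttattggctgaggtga
Rrm2: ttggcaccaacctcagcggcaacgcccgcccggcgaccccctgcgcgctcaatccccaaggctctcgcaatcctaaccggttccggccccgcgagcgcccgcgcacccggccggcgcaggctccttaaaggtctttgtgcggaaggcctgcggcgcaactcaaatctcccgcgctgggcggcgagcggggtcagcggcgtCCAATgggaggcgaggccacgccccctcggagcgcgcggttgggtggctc

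With all 6 libraries, no member passed the test in either direction. The log2 fold change of TSP2KO minus WT was above 0 in 34 of the 37 members tested and below 0 in Dut, E2f1 and Slbp; it was above 0 in 48.5% of all 14707 genes tested. Its median over the members was 0.50, against -0.01 over all genes. By limma with Benjamini-Hochberg adjustment over all genes, 0% of genes were called higher and 0.0612% lower. A single member, Ccne1, had an unadjusted p under 0.05, against 538 genes higher and 896 lower among all genes tested. WT 3 was the highest of the 6 libraries for 29 of the 37 members (78.4%, against 21.7% of all genes). The lowest library was WT 1 or WT 2 for 33 members, against 5207 of all 14707 genes tested. In bulk RNA, a difference in the number of cycling cells and one in this RNA per cell cannot be told apart.

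**Figure D1:**
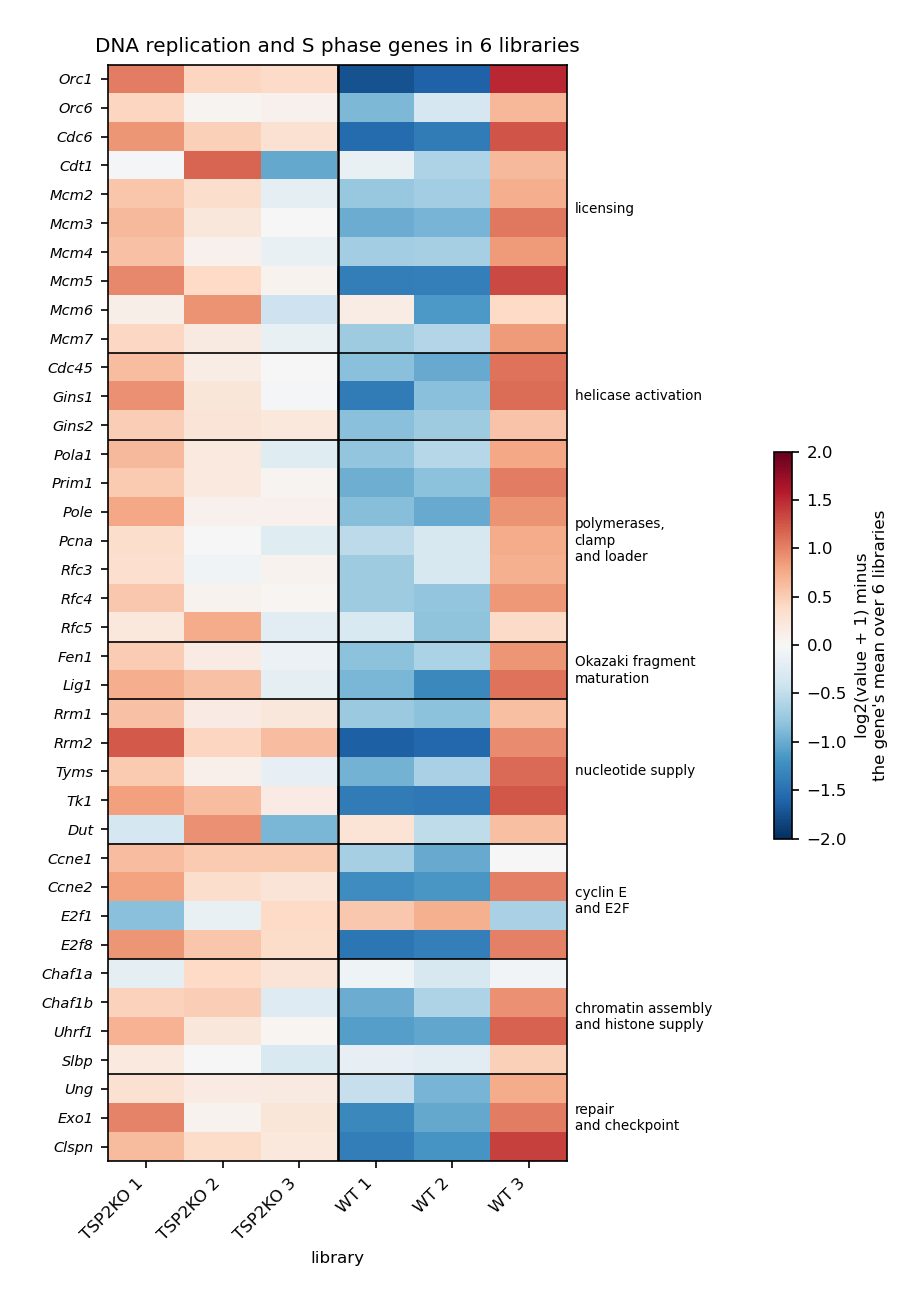
Level of the 38 members (down the page, grouped by role) in each library (across, TSP2KO then WT), as log2(value + 1) minus the gene's mean over the 6 libraries. WT 1 and WT 2 are below the mean for most members, while WT 3 is the highest library for 29 of the 37 tested.

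Without the library labelled WT 3, 17 of 37 members were higher in TSP2KO past the threshold and none was lower, where limma called 2.43% of all genes higher and 2.75% lower. The 17 were Orc1, Cdc6, Mcm3, Mcm5, Gins2, Prim1, Pole, Lig1, Rrm1, Rrm2, Tk1, Ccne1, Ccne2, E2f8, Uhrf1, Exo1 and Clspn. The log2 fold change was then above 0 in 35 of 37 members, where it was above 0 in 47.5% of all genes. Its median over the members tested was 1.10, against -0.03 over all genes, with a range of -0.82 to 2.36. All 3 TSP2KO libraries were above both WT libraries in 31 of the 37 and below both in 1, E2f1. Among all genes 21.1% did not overlap in the higher and 22.3% in the lower direction in that comparison. With all 6 libraries the groups did not overlap for 1 member, Ccne1, where 5.9% of all genes did not overlap in that direction and 8.27% in the lower one.

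Each TSP2KO library on its own also lay above WT 1 and WT 2 for most members. This held for 33 of 37 members in TSP2KO 1, 36 in TSP2KO 2 and 32 in TSP2KO 3, against 38.3%, 37.1% and 39.3% of all genes. WT 3 was above both for 36 of 37, against 39.4% of all genes. Set against the average of WT 1 and WT 2, the median member was 2.5-fold in TSP2KO 1, 2.14-fold in TSP2KO 2, 1.87-fold in TSP2KO 3 and 3.08-fold in WT 3. Within TSP2KO, TSP2KO 1 was the highest library for 30 of the 37 members and TSP2KO 3 the lowest for 29. Among all 14707 genes tested, this held for 4369 and 4984 genes.

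**Figure D2:**
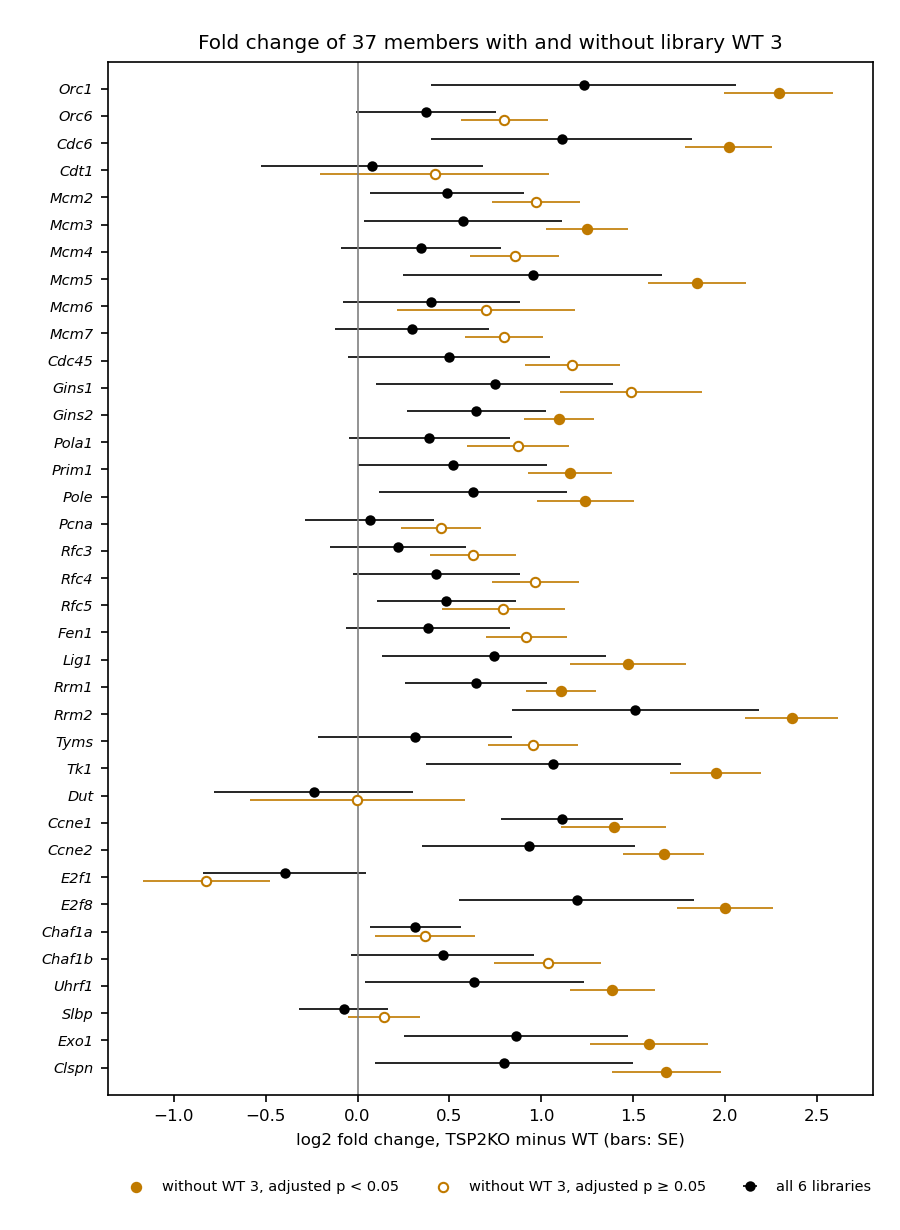
Log2 fold change of TSP2KO minus WT (across) with its standard error for the 37 members tested (down the page), with all 6 libraries (black) and without WT 3 (orange, filled where the adjusted p was under 0.05). All but Dut and E2f1 shift to the right of 0 without WT 3, and 17 are filled.

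The licensing genes load the helicase at origins before S phase. All 10 had a log2 fold change above 0 with all libraries, against 48.5% of all genes, with a median of 0.45. Without WT 3 the median was 0.91, and 4 of the 10 passed the test, where limma called 2.43% of all genes higher. Orc1, the largest subunit of the origin recognition complex, had 195, 129.7 and 125 normalised reads in TSP2KO, against 27.8, 30.6 and 274 in WT. WT 3 was the highest library, and the TSP2KO libraries lay far above WT 1 and WT 2. For Orc1 the log2 fold change was 1.23 ± 0.83 (SE) with all libraries (limma adjusted p = 0.709) and 2.29 ± 0.30 without WT 3 (limma adjusted p = 0.0168). Cdc6, the ATPase that joins Orc to the helicase, had 487, 369 and 327 normalised reads in TSP2KO, against 90.6, 99.6 and 636 in WT. Its order of libraries was the same as that of Orc1. For Cdc6 the log2 fold change was 1.11 ± 0.71 with all libraries (limma adjusted p = 0.694) and 2.02 ± 0.24 without WT 3 (limma adjusted p = 0.0144). Orc6, the smallest subunit, was less apart, with 597, 463 and 472 normalised reads in TSP2KO and 239, 353 and 707 in WT. Orc6 had a log2 fold change of 0.37 with 6 libraries and 0.80 without WT 3 (limma adjusted p = 0.0980).

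The Mcm ring has 6 subunits, and 2 of them passed without WT 3, where limma called 2.43% of all genes higher. Mcm5 had 1555, 1055 and 846 normalised reads in TSP2KO, against 307, 311 and 1992 in WT. Mcm3 had 1902, 1418 and 1207 in TSP2KO, against 610.3, 636 and 2529 in WT. In both, WT 1 and WT 2 were the lowest libraries and WT 3 the highest. Without WT 3 the log2 fold change was 1.85 ± 0.27 for Mcm5 (limma adjusted p = 0.0196) and 1.25 ± 0.22 for Mcm3 (limma adjusted p = 0.0307). Mcm2, Mcm4 and Mcm7 had the same order of groups, with log2 fold changes of 0.97, 0.86 and 0.80 without WT 3 and adjusted p of 0.0645, 0.0864 and 0.0758 by limma. With all libraries the 5 subunits were between 0.30 (Mcm7) and 0.95 (Mcm5). Mcm6 did not share this order. It had 399, 688 and 275 normalised reads in TSP2KO, against 408, 165 and 484 in WT. TSP2KO 3 was below WT 1, and the groups overlapped with and without WT 3; the log2 fold change of Mcm6 was 0.40 with all libraries and 0.70 ± 0.48 without WT 3 (limma adjusted p = 0.428). Per kilobase of annotated exon, the mean level in TSP2KO ran from 407 normalised reads for Mcm4 and 402 for Mcm3 down to 97.3 for Mcm6, and in WT from 357 for Mcm4 and 335 for Mcm3 down to 75.5 for Mcm6.

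Cdt1, which loads the ring and is degraded in S phase, had 41.9, 97.3 and 20.5 normalised reads in TSP2KO, against 38.6, 27.5 and 67.4 in WT. TSP2KO 2 was highest and TSP2KO 3 lowest of the 6 libraries. The log2 fold change of Cdt1 was 0.08 ± 0.60 with all libraries and 0.42 ± 0.63 without WT 3 (limma adjusted p = 0.728). Cdt1, Mcm6, Rfc5, Dut and Chaf1a had in common that TSP2KO 2 was the highest of all 6 libraries and that WT 1 was above WT 2.

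Helicase activation was represented by Cdc45, Gins1 and Gins2, which bind the Mcm ring and turn it into a moving helicase. Gins2 had 454, 387 and 373 normalised reads in TSP2KO, against 180.4, 195 and 481 in WT. WT 3 exceeded every TSP2KO library, while WT 1 and WT 2 were below all of them. Without WT 3 its log2 fold change was 1.10 ± 0.19 (limma adjusted p = 0.0295), and with all libraries it was 0.65 ± 0.38 (limma adjusted p = 0.675). Cdc45 had 271, 196 and 176 normalised reads in TSP2KO, against 98.9, 87.9 and 379 in WT. Gins1, the lowest of the 3 genes in normalised reads, had 113, 70.5 and 58.8 in TSP2KO, against 22.1, 33.0 and 130.2 in WT. Cdc45 and Gins1 did not pass without WT 3, with log2 fold changes of 1.17 and 1.49 and adjusted p of 0.0516 and 0.0717 by limma. With all libraries the changes were 0.50 and 0.75, with adjusted p of 0.823 and 0.771 by limma.

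Among the polymerases, the clamp and its loader, all 7 members had a log2 fold change above 0 with all libraries, against 48.5% of all genes. Their median was 0.43. Without WT 3 the median was 0.87, and 2 of 7 passed, where limma called 2.43% of all genes higher. Prim1, the primase subunit that makes RNA primers, had 333, 264 and 239.5 normalised reads in TSP2KO, against 116, 131 and 468 in WT. Pole, the catalytic subunit of the leading-strand polymerase epsilon, had 554, 345 and 345 in TSP2KO, against 180, 162 and 609 in WT. Both were above WT 1 and WT 2 in every TSP2KO library and highest in WT 3. Without WT 3 the log2 fold change was 1.16 ± 0.23 for Prim1 (limma adjusted p = 0.0392) and 1.24 ± 0.26 for Pole (limma adjusted p = 0.0469). With all libraries it was 0.52 ± 0.52 for Prim1 and 0.63 ± 0.51 for Pole, and neither passed. Pcna, the sliding clamp, had 1118, 867 and 743 normalised reads in TSP2KO, against 612, 698 and 1468 in WT. The TSP2KO libraries were above WT 1 and WT 2 by a small margin, and the log2 fold change of Pcna was 0.07 ± 0.35 with all libraries and 0.45 ± 0.22 without WT 3 (limma adjusted p = 0.255). Pola1, which extends primers, and the clamp loader subunits Rfc3, Rfc4 and Rfc5 did not pass, with log2 fold changes of 0.22 (Rfc3) to 0.48 (Rfc5) with all libraries and 0.63 (Rfc3) to 0.97 (Rfc4) without WT 3.

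Fen1 and Lig1 finish the lagging strand, by cutting the flap of an Okazaki fragment and by sealing the nick. Lig1 had 417, 379.9 and 222 normalised reads in TSP2KO, against 134, 103 and 538 in WT. Fen1 had 1231, 972 and 799 in TSP2KO, against 488, 555 and 1591 in WT. In both, WT 1 and WT 2 were the lowest libraries and WT 3 the highest. Lig1 passed the test without WT 3, with a log2 fold change of 1.47 ± 0.32 (limma adjusted p = 0.0480), and Fen1 did not, at 0.92 ± 0.22 (limma adjusted p = 0.0630). With all libraries Lig1 was at 0.74 ± 0.61 (limma adjusted p = 0.755) and Fen1 at 0.38 ± 0.45 (limma adjusted p = 0.834).

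Of the nucleotide supply genes, Rrm1 and Rrm2 had the highest mean normalised reads of all members in each group. Rrm2 had the largest log2 fold change of the members tested. Rrm2, the small subunit of ribonucleotide reductase, the enzyme that makes deoxyribonucleotides, had 5118, 2943 and 3377 normalised reads in TSP2KO, against 703, 736 and 4220.4 in WT. WT 1 and WT 2 were several-fold below the other 4 libraries, and TSP2KO 1, not WT 3, was the highest. The log2 fold change of Rrm2 was 1.51 ± 0.67 with all libraries (limma adjusted p = 0.527) and 2.36 ± 0.25 without WT 3 (limma adjusted p = 0.0120). Rrm1, the large subunit of the same enzyme, had 5600.3, 4188 and 4363 in TSP2KO, against 2229, 2114 and 5682 in WT. For Rrm1 the log2 fold change was 0.64 ± 0.39 with 6 libraries and 1.11 ± 0.19 without WT 3 (limma adjusted p = 0.0287). Per kilobase of annotated exon, Rrm2 averaged 1376 ± 415 normalised reads in TSP2KO and 681 ± 729 in WT, and Rrm1 averaged 428 ± 69.9 in TSP2KO and 303 ± 184 in WT (SD, n = 3 each). In this measure Rrm2 was the most abundant member in TSP2KO and Rrm1 the second.

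Tk1, the thymidine kinase of the salvage pathway, had 472, 407 and 296 normalised reads in TSP2KO, against 99.9, 97.7 and 626 in WT. WT 3 was highest and every TSP2KO library was above WT 1 and WT 2; its log2 fold change was 1.95 ± 0.25 without WT 3 (limma adjusted p = 0.0168) and 1.07 ± 0.69 with all libraries. Tyms, which makes thymidylate de novo, had 754, 565 and 469 normalised reads in TSP2KO, against 271, 334 and 1155 in WT, and did not pass with all libraries (log2 fold change 0.31, limma adjusted p = 0.897) or without WT 3 (log2 fold change 0.96, limma adjusted p = 0.0717). Dut, which keeps uracil out of DNA by cleaving dUTP, had 29.3, 72.2 and 19.6 in TSP2KO, against 45.8, 26.3 and 57.7 in WT. The libraries of the groups were interleaved, and the log2 fold change of Dut was -0.24 ± 0.54 with all libraries and 0.00 ± 0.59 without WT 3.

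**Figure D3:**
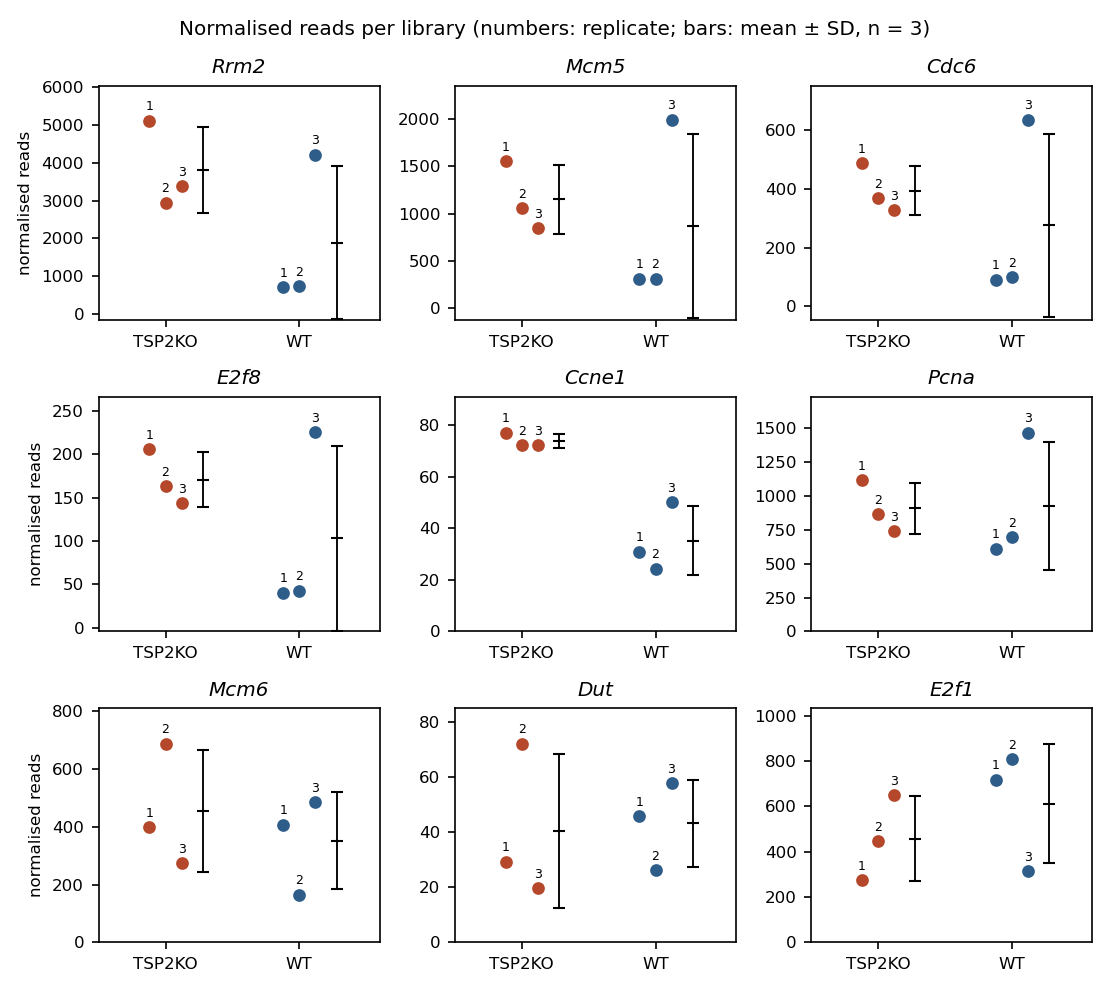
Normalised reads per library for 9 members, with TSP2KO on the left and WT on the right of each panel; numbers are replicates and bars are mean ± SD (n = 3 each). In the first row and in E2f8, WT 1 and WT 2 are low while WT 3 sits with or above TSP2KO; Ccne1 is separated in all libraries, and Mcm6, Dut and E2f1 follow other orders.

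The cyclin E genes drive entry into S phase with Cdk2. Ccne1 had 77.0, 72.2 and 72.1 normalised reads in TSP2KO, against 30.9, 24.3 and 50.04 in WT. It was the one member whose groups did not overlap with all 6 libraries. For Ccne1 the log2 fold change was 1.11 ± 0.33 with all libraries (unadjusted p = 0.0116, limma adjusted p = 0.318) and 1.39 ± 0.29 without WT 3 (limma adjusted p = 0.0432). Ccne2 had 973, 709.7 and 664 normalised reads in TSP2KO, against 236, 249 and 1119 in WT. It followed the common order, with WT 3 highest. For Ccne2 it was 0.93 ± 0.58 with all libraries (limma adjusted p = 0.691) and 1.67 ± 0.22 without WT 3 (limma adjusted p = 0.0168).

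The 2 E2F members lay on opposite sides. E2f8, an atypical E2F that represses E2F targets late in S phase, had 206, 163 and 143 normalised reads in TSP2KO, against 40.4, 42.7 and 226 in WT. E2f1, the activator that opens S phase, had 275, 446 and 649 in TSP2KO, against 718, 808 and 313 in WT. E2f1 was thus lowest in TSP2KO 1 and WT 3, where most members were highest, and highest in WT 1 and WT 2. The log2 fold change without WT 3 was 2.00 ± 0.26 for E2f8 (limma adjusted p = 0.0168) and -0.82 ± 0.35 for E2f1 (limma adjusted p = 0.202); with all libraries they were 1.19 ± 0.64 and -0.40 ± 0.44, and neither passed.

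Of the members that act in chromatin assembly and histone supply, 1 of 4 passed without WT 3. In that fit limma called 2.43% of all genes higher. Uhrf1, which recruits the maintenance methyltransferase to newly copied DNA, had 1029, 743 and 650.0 normalised reads in TSP2KO, against 294, 310.1 and 1443 in WT, and passed without WT 3 (log2 fold change 1.39 ± 0.23, limma adjusted p = 0.0267) but not with all libraries (0.64 ± 0.60, limma adjusted p = 0.792). Chaf1b, a subunit of chromatin assembly factor 1, had 338, 345 and 205 in TSP2KO, against 123, 159 and 462 in WT, and did not pass with all libraries (log2 fold change 0.46, limma adjusted p = 0.820) or without WT 3 (1.04, limma adjusted p = 0.0866). Its partner Chaf1a had 95.3, 144 and 131 in TSP2KO, against 102, 86.5 and 105 in WT. The libraries of Chaf1a were interleaved, and WT 3 did not stand apart from WT 1 and WT 2; for Chaf1a the log2 fold change was 0.31 ± 0.25 with 6 libraries and 0.37 ± 0.27 without WT 3 (limma adjusted p = 0.457). Slbp, which binds the stem-loop of histone mRNAs, had 1382, 1212 and 982 in TSP2KO, against 1087, 1048 and 1691 in WT. For Slbp the log2 fold change was -0.08 ± 0.24 with 6 libraries and 0.15 ± 0.20 without WT 3 (limma adjusted p = 0.697).

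Of the repair and checkpoint members, Exo1, an exonuclease of mismatch and break repair, had 307, 162 and 183 normalised reads in TSP2KO, against 62.8, 75.3 and 314 in WT. Clspn, the fork protein that passes the replication stress signal to Chek1, had 94.8, 78.3 and 70.3 in TSP2KO, against 22.7, 26.3 and 158 in WT. In both, every TSP2KO library was above WT 1 and WT 2. Without WT 3 the log2 fold change was 1.59 ± 0.32 for Exo1 (limma adjusted p = 0.0421) and 1.68 ± 0.30 for Clspn (limma adjusted p = 0.0296). With all libraries neither passed, at 0.86 ± 0.61 for Exo1 (limma adjusted p = 0.719) and 0.80 ± 0.70 for Clspn (limma adjusted p = 0.776).

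Some members share sequence or exons with other genes, and the sources used here do not say how reads were split between them. Of the 50-base stretches of Pcna transcripts, 19.1% occur in another gene, as do 18.09% of those of Mcm7 and 15.39% of those of Uhrf1, and 25 members were under 1%. Exons of 15 members overlap those of another gene, most for Fen1 (78.82% of its exonic bases overlap the antisense gene Gm10143), Gins2 (67.32%, Gse1) and Chaf1a (52.5%, Ubxn6). The genes that overlap Fen1, Gins2 and Chaf1a lie on the opposite strand. The values of Fen1, Gins2, Chaf1a, Pcna, Mcm7 and Uhrf1 are therefore uncertain, by an amount that these shares do not measure.

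A list of 69 other replication genes held further subunits and partners of the same machinery. None passed with all 6 libraries, 51 had a log2 fold change above 0, against 48.5% of all genes, and the median was 0.31. Without WT 3, 9 passed as higher and none as lower, where limma called 2.43% of all genes higher and 2.75% lower. The median was then 0.68. Of the 69, 42 were above WT 1 and WT 2 in every TSP2KO library, against 21.1% of all genes. Below both in every TSP2KO library was 1, against 22.3% of all genes. Smallest in p with all libraries were Samhd1 and Pold4. Samhd1, which degrades deoxyribonucleotides, had 703, 742 and 836 normalised reads in TSP2KO, against 519, 524 and 599 in WT. Pold4, the small subunit of polymerase delta, had 231, 263 and 408 in TSP2KO, against 139, 195 and 212 in WT. Only these 2 of the 69 genes were higher without overlap between groups with WT 3 included, against 5.9% of all genes. In the lower direction 1 of the 69 did not overlap, against 8.27% of all genes. For both Samhd1 and Pold4, TSP2KO 3 was the highest library. Their log2 fold changes were 0.47 ± 0.17 (limma adjusted p = 0.407) and 0.70 ± 0.29 (limma adjusted p = 0.490). Without WT 3 they were 0.54 ± 0.17 (limma adjusted p = 0.112) and 0.82 ± 0.30 (limma adjusted p = 0.158). Chtf18, of an alternative clamp loader, and Mcm10, which acts at helicase activation, were among the 9 that passed without WT 3. Mcm10 had 318, 238 and 183 normalised reads in TSP2KO, against 61.3, 60.4 and 386 in WT, with a log2 fold change of 1.08 ± 0.70 with all libraries (limma adjusted p = 0.698) and 1.97 ± 0.28 without WT 3 (limma adjusted p = 0.0192). Gmnn, Wdhd1, Pclaf and Asf1b, named after their values were seen, were also among the 9.

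The 26 regulators of the G1 to S transition, of which 24 were tested, set the timing of this wave. None passed with all libraries, the median log2 fold change was 0.08, and without WT 3 it was 0.04. Without WT 3, 1 gene was called higher, E2f7, where limma called 2.43% of all genes higher. E2f7, the partner of E2f8 among the atypical E2Fs, had 253, 211 and 196 normalised reads in TSP2KO, against 82.4, 79.6 and 269 in WT, with a log2 fold change of 0.85 ± 0.47 with all libraries (limma adjusted p = 0.655) and 1.42 ± 0.22 without WT 3 (limma adjusted p = 0.0230). Cdkn2c, an inhibitor of Cdk4 and Cdk6, had 123, 93.4 and 65.9 in TSP2KO, against 188, 195 and 160.4 in WT. Its groups did not overlap, and its log2 fold change was -0.98 ± 0.28 with all libraries (unadjusted p = 0.00927, limma adjusted p = 0.299) and -1.06 ± 0.30 without WT 3 (limma adjusted p = 0.0899). E2f2, a gene of low level, and Cdk2, named after its values were seen, were also lower without overlap with all libraries. Of the 24 regulators, 3 thus did not overlap in the lower direction and 0 in the higher, against 8.27% and 5.9% of all genes. Cdkn1a, the inhibitor induced by p53, had 4627, 5322 and 8340 normalised reads in TSP2KO, against 2457, 4830.3 and 3464 in WT, with a log2 fold change of 0.77 ± 0.32 (unadjusted p = 0.0446, limma adjusted p = 0.496) and 0.78 ± 0.36 without WT 3 (limma adjusted p = 0.240). TSP2KO 3 was the highest library for Cdkn1a and lowest for Cdkn2c. E2f6, a repressive E2F, had 233, 153 and 308 in TSP2KO, against 95.8, 84.7 and 179 in WT, and did not pass with all libraries (log2 fold change 0.97 ± 0.38, limma adjusted p = 0.455) or without WT 3 (1.29 ± 0.32, limma adjusted p = 0.0647).

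The later phases of the cycle were compared by 25 genes of G2 and M. All 25 had a log2 fold change above 0 with all libraries, against 48.5% of all genes, with a median of 0.90 and no call. Without WT 3 the median was 1.70 and 20 passed as higher, where limma called 2.43% of all genes higher. In all 25, each TSP2KO library was above WT 1 and WT 2, against 21.1% of all genes. WT 3 was above both in all 25 too, against 39.4% of all genes.

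**Figure D4:**
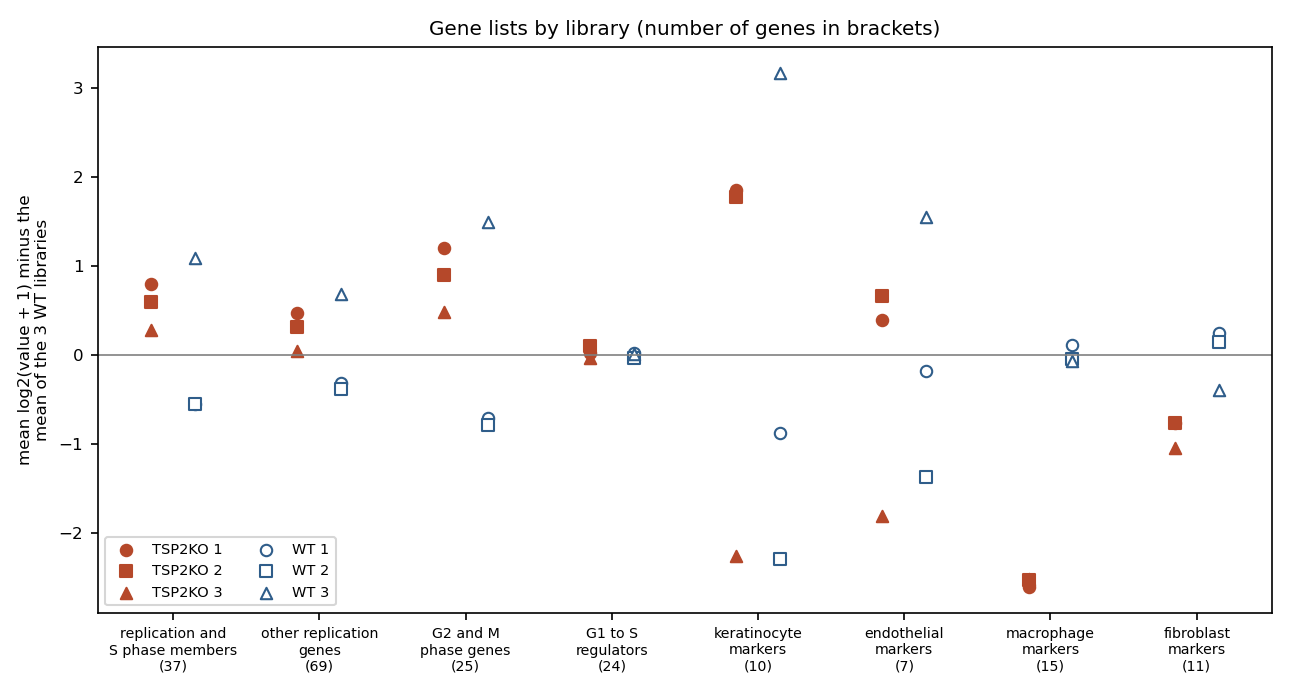
Mean log2(value + 1) of each gene list relative to the mean of the 3 WT libraries (up the page), one point per library, TSP2KO filled and left of WT, open, in each list. Members read 0.80, 0.60 and 0.28 in TSP2KO 1 to 3 and -0.55, -0.55 and 1.10 in WT 1 to 3; the keratinocyte list separates TSP2KO 3 from the other TSP2KO libraries.

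The mean log2 level of the 37 members, relative to the mean of the WT libraries, was 0.80, 0.60 and 0.28 in TSP2KO 1, 2 and 3, against -0.55, -0.55 and 1.10 in WT 1, 2 and 3. The order of libraries was WT 3, TSP2KO 1, TSP2KO 2, TSP2KO 3, then WT 1 and WT 2, which were equal within 0.01. Markers of other skin cells moved between the libraries too. The summed level of 14 keratinocyte markers was 18652, 15382 and 659 normalised reads in TSP2KO, against 1930.4, 658 and 53356 in WT. The list was led by Krt14, Krt6a and Krt17, while Lor was at 0 in 5 of the 6 libraries. WT 3, TSP2KO 1 and TSP2KO 2 had the highest sums, in that order, and had the highest mean log2 levels of the members in the same order. TSP2KO 3 and WT 2 held nearly the same sum of these markers. The members' mean log2 level was 0.28 in TSP2KO 3 against -0.55 in WT 2, and 32 of 37 members in TSP2KO 3 were above both WT 1 and WT 2. Of the 10 keratinocyte markers tested, 3 were above WT 1 and WT 2 in TSP2KO 3 and 4 were below both. In TSP2KO 1, TSP2KO 2 and WT 3, 9, 10 and 10 were above both. The summed level of 15 macrophage markers was 749, 869 and 869 in TSP2KO, against 6223, 5154 and 3497 in WT, so that WT 3 was with the other WT libraries in these genes. The summed level of 7 endothelial markers was 2551, 2262 and 582 in TSP2KO, against 1139, 606 and 5209.6 in WT. The summed level of 5 mural cell markers was 4186, 3954 and 5532 in TSP2KO, against 583, 521 and 2479 in WT. Most of this sum was Cspg4, with 4084, 3749 and 5362 in TSP2KO, against 467, 447 and 1997 in WT; 2 of the 5 markers were lowest in WT 1 or WT 2. Of 8 skeletal muscle markers 6 were listed, with a sum of 673, 371 and 478 in TSP2KO, against 25.2, 19.6 and 314 in WT, most of it Acta1. The summed level of 5 melanocyte markers was 591, 224 and 57.0 in TSP2KO, against 79.3, 129.1 and 1135 in WT, and that of 5 Schwann cell markers was 5459, 4554 and 1701 in TSP2KO, against 11435, 9915 and 3999 in WT. Of 5 adipocyte markers 3 were listed, with a sum of 185, 295 and 24.9 in TSP2KO, against 151, 109.1 and 842 in WT. Most of this sum was Fabp4, with 836 in WT 3. Plin1 was at 0 outside WT 3, and Adipoq was highest in TSP2KO 2, with 32.4 against 3.2 in WT 3. The sums of keratinocyte, endothelial, melanocyte and adipocyte markers were thus highest in WT 3, while that of muscle markers was lowest and that of Schwann cell markers highest in WT 1 and WT 2. The part of culture makeup in the levels of the members was not tested in any library.

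Motifs in the promoter windows were described without a test. Of the 32 members with a window, 12 held the E2F site in its 4 spellings (37.5%), against 2.26% of all 32851 windows and 2.6% of 27025 genes. Among other replication genes it was 16 of 57 (28.1%), and among G2 and M genes 1 of 21 (4.76%). The looser spelling TTNNNCGC, which contains the first, was in 65.6% of the members, 54.4% of the other replication genes and 57.1% of the G2 and M genes, against 20.2% of all windows and 22.3% of all genes, so that members and G2 and M genes were closer in it than in the stricter site. A CCAAT box on either strand was in 19 of 32 members (59.4%), against 18 of 21 G2 and M genes (85.7%), 37.4% of all windows and 41.1% of all genes. The 12 members with an E2F site had a median log2 fold change of 0.61 with all libraries and 1.32 without WT 3, and 7 of them passed without WT 3. The 19 members tested whose window had none, such as Rrm2, Tk1 and E2f8, had medians of 0.46 and 0.97, and 6 passed. Members whose TSP2KO libraries overlapped WT 1 and WT 2 were in both groups, Cdt1 and Mcm6 with sites and Dut, Slbp and Chaf1a without. No window was held for Ccne2, Exo1, Gins1, Gins2, Mcm4 and Pole. These 6 members had medians of 0.70 and 1.37, above those of both other groups, and 4 passed without WT 3. In that fit limma called 2.43% of all genes higher. A link between E2F sites and fold change was not tested.

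**Figure D5:**
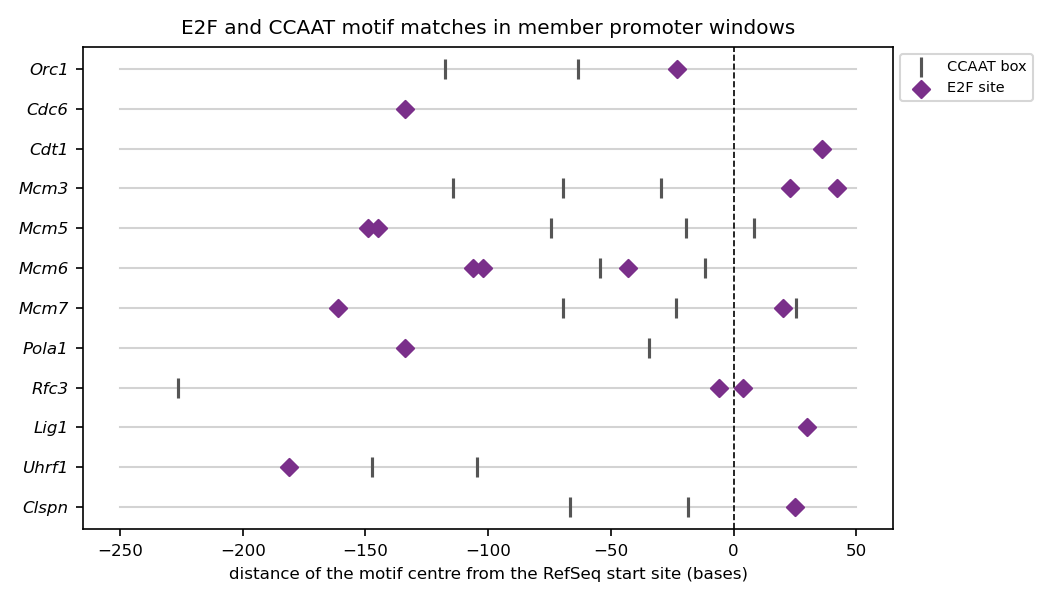
Position of E2F sites (diamonds) and CCAAT boxes (ticks) in the windows of the 12 members with an E2F site, in bases from the RefSeq start site (dashed line); the grey line is the window. Sites lie on both sides of the start, with centres from 181 bases before it in Uhrf1 to 42 bases after it in Mcm3.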

How the data were processed

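The authors deposited 1 table of normalised signal, 6 columns of values per gene that its name calls normalised counts. Per the submitters' processing notes the build is mm10, with the tools STAR, Partek and DESeq2 listed in no role or order. The sources used here give neither the counting options nor the strand setting. Low values fell on steps of 1 read, but 76.3% to 78.7% of values of up to 200 reads were whole within 0.02 read, so whole reads were not recovered and no count test was run. Depth was estimated as the total over the step.

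Genes with a mean of at least 10 over the 6 libraries (14707 of 23407) were tested on log2(value + 1), a pseudocount of 1, with limma 3.58.1 in R 4.3.3, a linear model per gene with a mean-variance trend, two-sided; calls needed an adjusted p (Benjamini-Hochberg, every gene in the fit) under 0.05. Fold changes on this scale understate the change of low genes. The fit was tested on simulated data for these genes. Coordinates and exon lengths are from GENCODE M21, promoter windows from RefSeq (GRCm38.p6).

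The members, the other lists and the tests were chosen with earlier results of these data known. Any member could be named. Of the 3 lists of cell cycle genes, up to 6 genes with the smallest unadjusted p and any past the threshold were named, and of marker lists up to 3 with the highest mean. Genotype and replicate number tied each column to its sample. For all 6 libraries, WT 3 included, the column headers carry another sequencer suffix than the sample labels do. WT 3 lay near the TSP2KO libraries in Thbs2 and with the other WT libraries in the macrophage markers. Whether there was any mix-up was not tested, and one of columns could not be told apart from one of samples. Some genes of these lists are counted but not reported here by name.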

Additional observations from a re-analysis of the deposited data

How the results depend on the processing

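With pseudocounts of 0.1 and 10, no filter, a mean of at least 100, TMM rescaling, median centring, no variance trend or a replicate block, no member passed and no member's fold change reversed. The members' median stayed between 0.48 and 0.54. Genes called lower, 9 in the fit reported, numbered 0 with a pseudocount of 0.1, 14 with 10, 0 without the filter, 0 with a mean of at least 100, 15 without the trend and 0 with the replicate block, where the members called also numbered 0. Same-numbered libraries deviated with correlations of -0.42, -0.25 and -0.40. With 3 libraries per group, and with WT 3 against its label in Thbs2, these values cannot tell whether the numbers pair the libraries. Leaving out each library in turn gave 0 to 17 members called higher, 0 to 357 genes higher, 0 to 404 genes lower, 0 to 9 other replication genes and 0 to 1 G1 to S regulators. The highest count came without WT 3 each time. The members' median then ran from 0.24 to 1.10. Over these fits the direction reversed for Cdt1 (-0.49 to 0.61; without TSP2KO 2 or WT 2), Mcm6 (-0.073 to 0.71; WT 2), Pcna (-0.18 to 0.45; TSP2KO 1, WT 1 or WT 2), Rfc3 (-0.082 to 0.63; WT 1), Tyms (-0.087 to 0.96; WT 1), Dut (-0.76 to 0.16; TSP2KO 3) and Slbp (-0.20 to 0.15; TSP2KO 3 or WT 3). The share of members with an E2F site was 65.6% with the looser spelling, against 37.5%. The causes were not tested. Depth limits Ung most, which was left untested.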
